A study of Mus musculus with 6 samples.

Results

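Immediate early genes and heat shock genes were followed through 6 single-cell libraries from mouse heart and brain, taken after sham surgery or from infarcted and peri-infarct tissue. The set holds 38 genes chosen by name out of the 31053 genes counted in the files. It was split by function into 31 immediate early genes and 7 heat shock genes, and every one of the 38 was found in the files. All mice carried Tbx18CreER/+ and Rosa26tdT/+, in which tamoxifen lets cells that express Tbx18, a transcription factor of pericytes and other vessel-wall cells, switch on the red reporter tdT. All groups, sham included, received tamoxifen for 4 days and then had a week without it. Heart infarcts were made by tying the left anterior descending (LAD) coronary artery and brain infarcts by photothrombosis, in which a light-activated dye closes cortical vessels. Each organ gave 3 libraries: sham, infarct area and peri-infarct area. Ventricles were digested with collagenase and dispase, cortex with a commercial adult brain kit, and tdT-positive cells were sorted from both, so organ and dissociation method cannot be told apart. The labels used here give no age, no time after injury and no number of animals per library. Each group was 1 library and both injury libraries of an organ were set against the same sham library, so no difference was tested and every interval covers counting error only.

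Immediate early genes are transcribed within minutes of a stimulus by factors that the cell already holds, without new protein synthesis. Fos and Jun proteins pair to form the AP-1 factor, the Egr, Klf and Nr4a genes encode further DNA-binding proteins, and genes such as Dusp1, Zfp36 and Nfkbia encode proteins that shut the same signals down. Heat shock genes encode chaperones that refold damaged protein and are driven by the factor HSF1. Both programmes are known to respond to growth factors, stretch, ischaemia and inflammation in vessel-wall cells, and also to warm enzymatic digestion and sorting, so the levels below hold the state of the tissue and its handling together, and these cannot be told apart in these libraries.

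Cells with at least 500 genes and at most 10% mitochondrial UMIs were kept (a UMI, or unique molecular identifier, stands for 1 captured RNA molecule), which left 2071 to 13630 cells per library. The heart sham library stood apart, and since it is the single sham of its organ no heart comparison can be made without it: its kept cells had a median of 1408 UMIs, against 10858 in the heart infarct and 8976 in the heart peri-infarct library. Malat1, a nuclear RNA, took 7.99% of UMIs in heart sham and 2.19% and 2.37% in the heart injury libraries. In the brain the sham and peri-infarct libraries were of similar depth, with medians of 3374 and 2944 UMIs, and the infarct library was deeper at 26159. Free RNA was read from fibroblast markers in endothelial cells, which stood at 21.9% of their level in fibroblasts in the heart sham library, 11.4% and 11.2% in the heart injury libraries, and 1.27%, 7.08% and 1.48% in brain sham, infarct and peri-infarct. Pairs of libraries shared 24 to 204 cell barcodes, and leaving these out moved none of the 16 counts of called genes below by more than 1.5 times. Cells were assigned to classes by marker gates, and a class was described in a library with at least 50 such cells. Pericyte, smooth muscle, fibroblast, endothelial, mesothelial and macrophage below mean pericyte-like and so on. No gate was met by 17.2%, 15.3% and 1.99% of kept cells in heart sham, infarct and peri-infarct. In brain sham, infarct and peri-infarct it was 5.63%, 34.4% and 9.49%. A further 11.8% in heart sham, and 2.57% to 4.60% in the other libraries, met 2 gates without a clear lead and were left out. Between 1.75% and 64.3% of a class lay near its gate's limit, most in brain infarct and heart sham fibroblasts and heart sham pericytes. In the brain infarct library 56 cells also passed the mesothelial gate, with 4 of 7 markers detected; brain sham and peri-infarct held 9 and 5, so these cells entered no comparison, and their median was 8 immediate early UMIs in 1000. The brain infarct library held 5 smooth muscle cells by these gates, so that class is not described there. Haemoglobin genes led the endothelial class of both brain injury libraries, and the heart sham endothelial class was led by Gkn3, Cldn5 and Selp where Gpihbp1 and Fabp4 led the heart injury ones.

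The summed immediate early level differed between libraries and between classes of 1 library. Over the main classes of a library the heat shock level spanned less than the immediate early level, except in heart infarct. Between injury and sham the heat shock total also moved less in every heart class. In brain peri-infarct against sham the heat shock total moved more than the immediate early level in every class compared. Single heat shock genes did not all follow their total. In fibroblasts and endothelial cells of both heart injury libraries Hspa1a fell further than the immediate early total, as given below. A level is given as UMIs per 1000000 UMIs of the class (CPM), counted at the 3′ end of each RNA and not divided by gene length. In the heart sham library the immediate early list took 23879 CPM in pericytes, 36416 in smooth muscle, 25582 in fibroblasts, 34136 in endothelial cells and 17884 in mesothelial cells. The heart infarct library held 12747, 16081, 15622, 14598 and 12726 CPM in the same classes, and the heart peri-infarct library 8293, 22928, 16976, 16189.5 and 10024 CPM. Both heart injury libraries therefore lay below sham in all 5 classes. In the brain sham library the list took 8999 CPM in pericytes, 25977 in smooth muscle, 19554 in fibroblasts and 19072 in endothelial cells. The brain peri-infarct library held 5068, 35369.5, 17576 and 12183 CPM, lower than sham in 3 classes and higher in smooth muscle. The brain infarct library held 17646 CPM in pericytes, 12713 in fibroblasts and 16346 in endothelial cells, higher than sham in pericytes alone of the 3. Pericytes were the lowest of the 4 main classes in 5 of the 6 libraries and the highest of 3 in the brain infarct library. The widest counting interval of these totals was ±2.66% of the level and that of the heat shock totals ±5.87%.

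**Figure D1:**
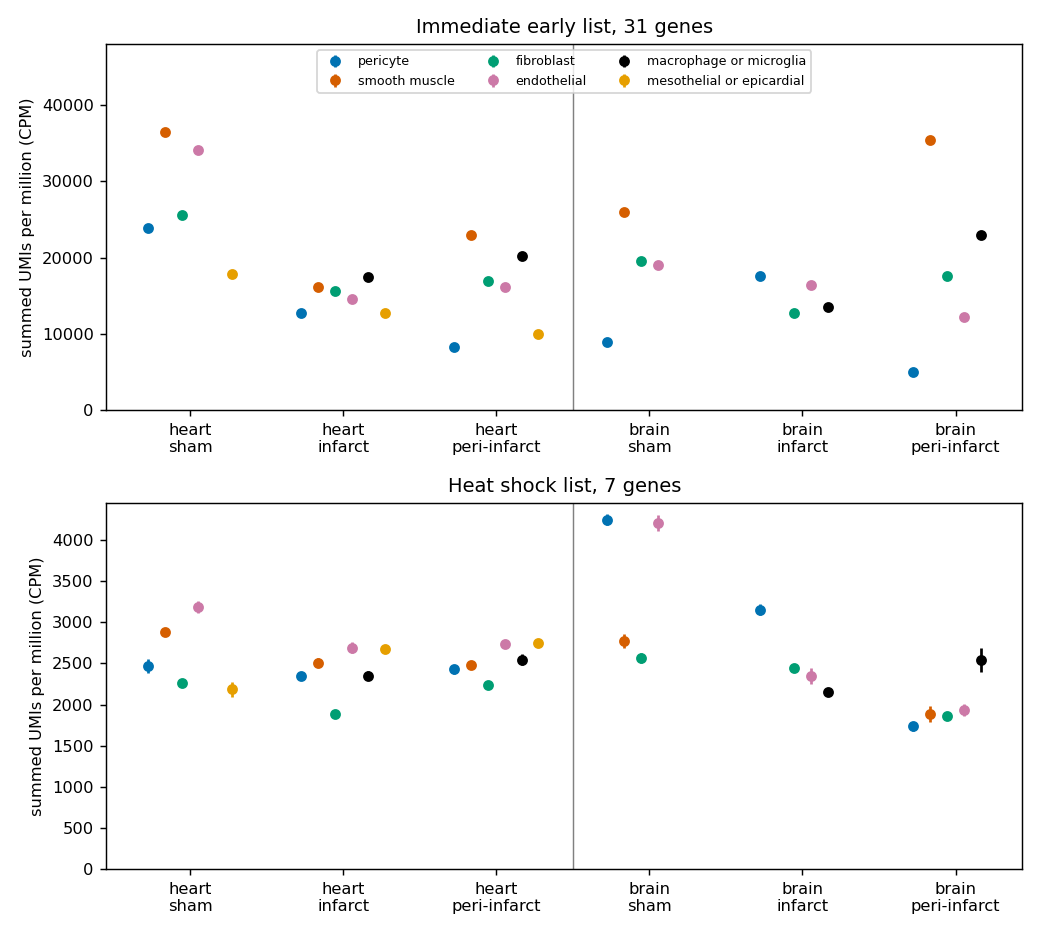
Summed level of the 31 immediate early genes (top) and the 7 heat shock genes (bottom) in UMIs per 1000000 (CPM, linear axes from 0) for each gated class of the 6 libraries; points are class sums and bars exact Poisson 95% intervals, often smaller than the point. Class by class, the immediate early points of both heart injury libraries lie below those of heart sham, and in the brain peri-infarct library they run from 5068 CPM in pericytes to 35369.5 CPM in smooth muscle, while the heat shock points of its 4 main classes lie close together; the cardiomyocyte class is not drawn.

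Classes of 1 library did not stand at 1 common immediate early level. Over the 4 main classes the highest total was 1.53 times the lowest in heart sham, 1.26 times in heart infarct and 2.76 times in heart peri-infarct. In the brain the ratio was 2.89 in sham, 1.39 over the 3 described classes of the infarct library and 6.98 in peri-infarct. The lists also ranked the classes differently: in brain sham, pericytes had the lowest immediate early total and the highest heat shock total, 4244 CPM. Heat shock totals of the 4 main classes spanned 1.41, 1.43 and 1.23 times in heart sham, infarct and peri-infarct, 1.65 times in brain sham and 1.11 times in brain peri-infarct, and 1.34 times over 3 classes in brain infarct.

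Per cell, classes differed in the spread of the immediate early share as well as in its level. Each cell was thinned to 1000 UMIs so that depths match, and cells below that were left out, 360 of 1022 pericytes in heart sham and 18 of 1267 in brain sham, for example. In heart sham the median pericyte had 23 immediate early UMIs (quartiles 16 and 31) and the median smooth muscle cell 35 (27 and 44). Before thinning, these medians were a share of 2.27% and 3.49% of a cell's UMIs. Heart infarct pericytes had a median of 9 (4 and 18) and heart peri-infarct pericytes 4 (2 and 9), or 0.861% and 0.405% before thinning. So 63.0% of heart sham pericytes had 20 or more such UMIs, against 22.5% in infarct and 8.36% in peri-infarct; the mark of 20 was set after the values had been seen. In brain sham, 9.29% of pericytes reached 20, in brain peri-infarct 2.23%, and in brain infarct 35.7%. Brain pericytes had medians of 4 UMIs in sham, 3 in peri-infarct and 10 in infarct, and upper quartiles of 7, 5 and 30. Before thinning, their medians were 0.421%, 0.343% and 0.969% of a cell's UMIs. Brain smooth muscle was spread most: in peri-infarct the quartiles were 2 and 51.8 around a median of 29.5, with 38.2% of cells under 5 UMIs and 55.3% at 20 or more. In brain sham smooth muscle 27.7% were under 5 and 43.1% at 20 or more. Brain sham endothelial cells were more even, with quartiles of 8 and 23 around 14 and 5.45% of cells under 5.

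**Figure D2:**
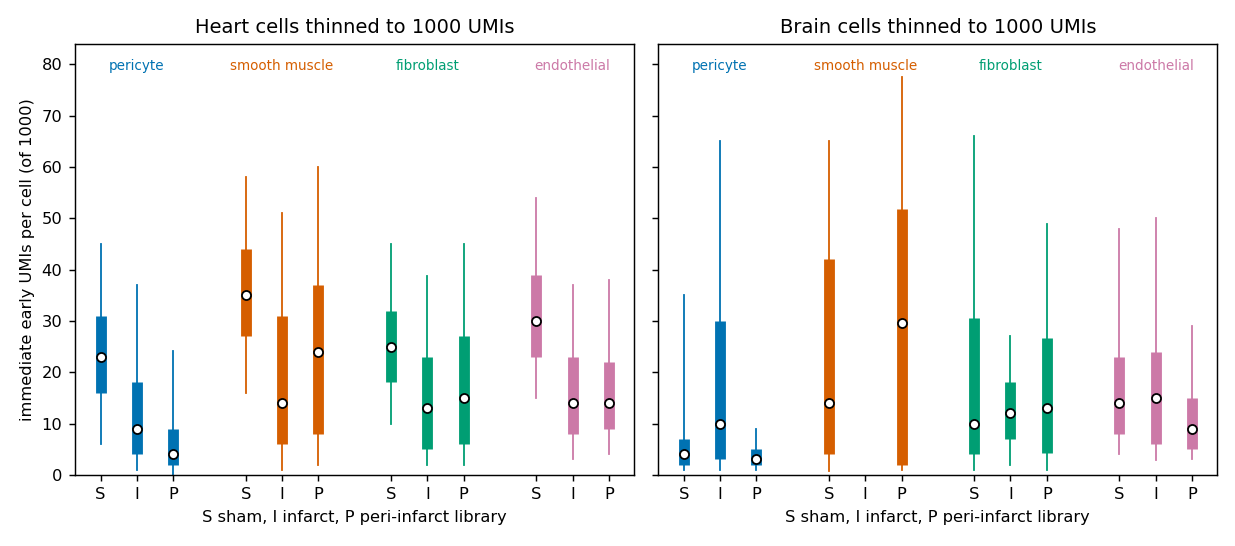
Immediate early UMIs per cell after each cell was thinned to 1000 UMIs, by class and library (S sham, I infarct, P peri-infarct); circles are medians, thick bars run between the quartiles and thin bars from the 5th to the 95th percentile of cells. Heart sham cells sit high in all 4 classes, most brain pericytes sit near 0 outside the infarct library, and brain peri-infarct smooth muscle spans from 2 to 51.8 between its quartiles.

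Heart infarct against heart sham asked how the 2 programmes stood in the injured ventricle. The immediate early total was 1.87-fold lower in pericytes, 2.26-fold lower in smooth muscle, 1.64-fold lower in fibroblasts, 2.34-fold lower in endothelial cells and 1.41-fold lower in mesothelial cells. A gene was compared in a class where its mean over both libraries was at least 50 CPM and called at a 2-fold difference. In pericytes 10 of 27 immediate early genes were called lower and none higher, where 5.1% of all genes compared were called lower and 5.26% higher. In smooth muscle 19 of 29 were lower and none higher, against a background of 6.98% and 7.02%. In fibroblasts 8 of 29 were lower and none higher (5.14% and 6.59% of all genes). Endothelial cells had 16 of 28 lower and none higher (5.13% and 3.51%), and mesothelial cells 5 of 28 lower and 1 higher (12% and 8.43%). The median log2 ratio of the list (of CPM + 1, as throughout) was -0.85, -1.13, -0.70, -1.16 and -0.58 in that order, beside medians over all genes of 0.08, 0.12, 0.04, 0.08 and -0.03. Junb and Cebpd were called lower in all 5 classes. Ier3 alone was called both ways, lower in endothelial and higher in mesothelial cells. The heat shock total differed by at most 0.30 on the log2 scale in any class, with 1 of 5 genes, Hspa1a, called lower in endothelial cells and none in the other 4 classes.

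Depth, free RNA, Malat1 and marker content moved with this contrast. Malat1 took 10.3% of pericyte UMIs in sham and 3.82% in infarct. Of 10 fibroblast markers, led by Dcn, all had UMIs in heart pericytes of each library. They summed to 7335 CPM in heart sham pericytes and 2474 CPM in infarct pericytes, with 7.65 and 0.228 per 1000 UMIs in the median cell, and in endothelial cells to 5094 and 1861 CPM. All 8 endothelial markers had UMIs in heart pericytes, at 330.4, 84.7 and 89.1 CPM in sham, infarct and peri-infarct. The part of Malat1 and of these markers in the result was not tested. Among cells of 1000 to 5000 UMIs the log2 ratios of the infarct totals were -0.86 in pericytes, -0.57 in smooth muscle, -0.72 in fibroblasts and -0.75 in endothelial cells, beside -0.91, -1.18, -0.71 and -1.23 in all cells. With an estimated free RNA share subtracted they were -0.84, -1.24, -0.64 and -1.28, and -0.23 in mesothelial cells, where the ratio in all cells was -0.49.

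Heart peri-infarct against sham gave the same direction with another order of classes. The immediate early total was 2.88-fold lower in pericytes, 1.59-fold in smooth muscle, 1.51-fold in fibroblasts, 2.11-fold in endothelial cells and 1.78-fold in mesothelial cells. In pericytes 22 of 27 genes were called lower and none higher, where 6.17% of all genes were lower and 5.12% higher. Smooth muscle had 3 of 29 lower and none higher (2.83% and 3.07% of all genes), fibroblasts 5 of 29 and none (2.66% and 3.06%). Endothelial cells had 14 of 28 lower and none higher (4.93% and 3.78%), and mesothelial cells 10 of 28 lower and 1 higher (10.4% and 7.91%). List medians were -1.46, -0.69, -0.56, -1.01 and -0.67 on the log2 scale, and medians over all genes 0.14, 0.13, 0.11, 0.10 and 0.05. Atf3, a stress-induced partner of AP-1 proteins, was called lower in all 5 classes, and Ier3 was lower in pericytes and endothelial cells and higher in mesothelial cells. Heat shock totals lay between -0.22 and 0.33 on the log2 scale over the 5 classes, and again only Hspa1a in endothelial cells was called. Fibroblast markers in peri-infarct pericytes summed to 1817 CPM and smooth muscle markers to 2856 CPM, against 7335 and 6752 CPM in sham pericytes, and Malat1 took 4.17% of their UMIs against 10.3%. The part of these in the result was not tested.

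Brain infarct against sham split the classes of the library. The immediate early total was 1.96-fold higher in pericytes (95% counting interval 1.93 to 1.99), 1.54-fold lower in fibroblasts and 1.17-fold lower in endothelial cells. In pericytes 11 of 23 genes were called higher and none lower, beside 8.98% higher and 13.2% lower over all genes. In fibroblasts 8 of 24 were lower and none higher, and there 20.6% of all genes were lower and 11.8% higher. In endothelial cells 2 were lower and 2 higher of 24, near the background of 13.6% and 6.93%. The list medians were 0.99, -0.72 and -0.05 on the log2 scale and the medians over all genes -0.24, -0.09 and -0.23. Fosb and Atf3 were called both ways, higher in pericytes and lower in fibroblasts. Heat shock totals were lower in all 3 classes, by 1.35-fold in pericytes, 1.05-fold in fibroblasts and 1.79-fold in endothelial cells. Called lower were 1, 2 and 2 of 6 heat shock genes, beside 13.2%, 20.6% and 13.6% of all genes, so the pericyte count is near its background. Hspa1b was among the genes called lower in every class. The middle cell did not follow these totals in pericytes and fibroblasts: its heat shock share was 0.243% in sham and 0.249% in infarct pericytes, and 0.178% and 0.227% in fibroblasts, against 0.282% and 0.190% in endothelial cells. After thinning to 1000 UMIs the median was 2 UMIs in both libraries for pericytes and fibroblasts. Under edgeR TMM scaling the all-gene median of the fibroblasts moved to 0.54 and their immediate early ratio to -0.04, their heat shock ratio to 0.50 and the endothelial immediate early ratio to 0.06. The endothelial ratio also turned to 0.06 in cells of 1000 to 5000 UMIs and to 0.02 in thinned cells and as a mean over cells, so its direction held in 14 of 18 alternatives, while the pericyte immediate early ratio was positive under all 18 alternatives. In pericytes themselves the pericyte markers summed to 37587 CPM in sham and 24415 CPM in infarct, with 37.2 and 38.5 per 1000 UMIs in the median cell. Pericyte markers in endothelial cells summed to 9125 CPM in sham and 1136 CPM in infarct, with Colec11 the one of 8 at 0 in infarct. Smooth muscle markers in pericytes summed to 163 and 807 CPM, with 9 of 9 and 7 of 9 detected (Cnn1 and Pln at 0 in infarct). Fibroblast markers in pericytes summed to 189.7 and 1154 CPM, with 6 and 7 of 10 detected and Dpt, Tcf21 and Pcolce2 at 0 in both. In fibroblasts pericyte markers summed to 2157 CPM in sham and 309 CPM in infarct, led by Vtn, with 8 of 8 detected in both, and smooth muscle markers to 83.8 and 929.9 CPM, with 9 of 9 and 8 of 9 detected (Pln at 0). Malat1 took 5.28% of UMIs in the sham and 0.726% in the infarct library. The part of these in the result was not tested.

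Brain peri-infarct against sham, 2 libraries of like depth and of low free RNA by fibroblast markers, gave few calls over all genes. Pericyte markers reached further into other classes. In sham they summed to 37587 CPM in pericytes, 9125 CPM in endothelial cells and 9120 CPM in smooth muscle. In peri-infarct the same sums were 43737, 8314 and 8087 CPM, and their part in the results was not tested. Malat1, a nuclear RNA whose share moves with RNA quality, took 5.28% of UMIs in sham and 2.77% in peri-infarct (6.58% and 3.23% in pericytes, 5.79% and 3.03% in smooth muscle, 3.43% and 1.85% in endothelial cells), and its part in the results was not tested. The immediate early total was 1.78-fold lower in pericytes, 1.36-fold higher in smooth muscle (95% counting interval 1.34 to 1.38), 1.11-fold lower in fibroblasts and 1.57-fold lower in endothelial cells. Under TMM scaling the fibroblast ratio turned to 0.07 on the log2 scale, and the other 3 kept their sign under every alternative. In pericytes 5 of 18 genes were called lower, Fos, Fosb, Jun, Egr1 and Btg2, and none higher, where 0.608% of all genes were lower and 0.203% higher. In smooth muscle Maff, Gadd45g and Cebpd were called higher and Nr4a3 lower of 27, beside 0.489% higher and 1.28% lower over all genes. In fibroblasts Fosb was lower and Cebpd higher of 25 (background 4.46% and 1.36%). In endothelial cells 6 of 24 were lower, Fosb, Atf3, Egr1, Klf4, Nr4a1 and Btg2 and none higher (background 0.903% and 0.356%). List medians were -0.78, 0.31, -0.22 and -0.78 on the log2 scale beside all-gene medians of -0.01, -0.04, -0.06 and -0.11. The heat shock total was lower in all 4 classes, 2.44-fold in pericytes, 1.47-fold in smooth muscle, 1.38-fold in fibroblasts and 2.17-fold in endothelial cells. Of 6 heat shock genes compared, 4, 3, 2 and 3 were called lower in these classes and none higher. Smooth muscle markers in pericytes summed to 226 CPM and pericyte markers in endothelial cells to 8314 CPM, close to sham, and the median mitochondrial share of smooth muscle cells was 4.39% in sham and 4.75% in peri-infarct.

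**Figure D3:**
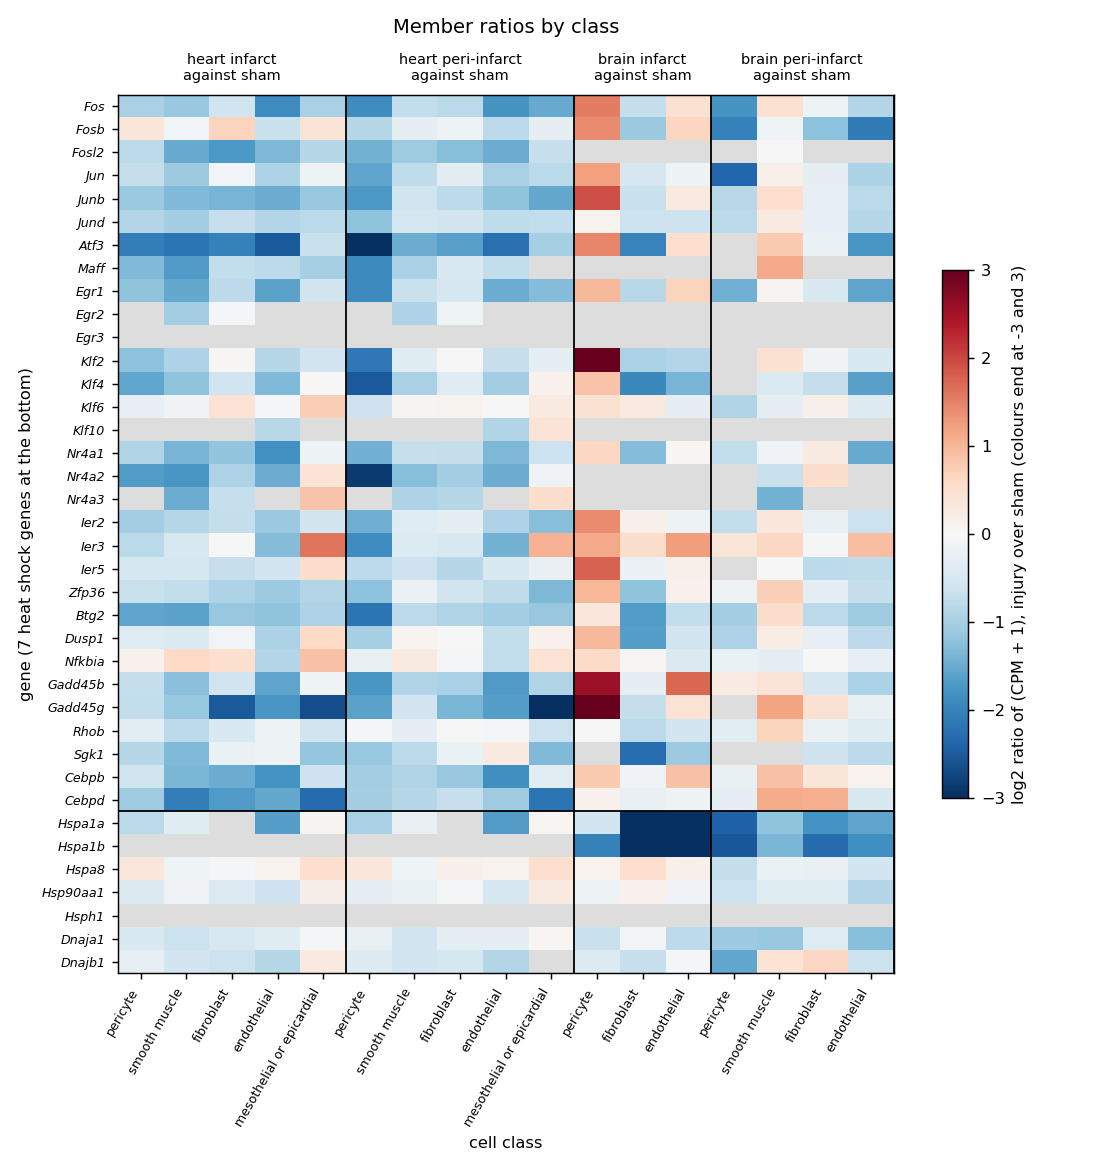
Log2 ratio of (CPM + 1), injury over sham, for each of the 38 genes (vertical) in each class (horizontal) of the 4 comparisons; blue is lower and red higher than sham, grey marks genes under a mean of 50 CPM, and the line separates the 7 heat shock genes. The heart columns are mostly blue above the line and pale below it, the brain infarct pericyte column is red above the line, and Hspa1a and Hspa1b are blue in the brain columns.

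Upstream sequence was read for the genes that carry these results. RefSeq (GRCm38.p6) listed a start for 31 of the 38 genes; Egr1, Egr3, Klf10, Ier2, Cebpd, Hspa8 and Hsp90aa1 had no entry in the table used. The 250 bases before each start were searched on both strands for TGACGTCA, the cyclic AMP response element, for the CArG box bound by serum response factor, for TGANTCA, the AP-1 site, and for GAANNTTC and TTCNNGAA, pairs of heat shock element units. A gene was counted when any of its listed windows held the string. TGACGTCA was in the windows of Btg2, Dusp1 and Maff and of 1.77% of the 27025 genes listed. The CArG box was in those of Egr2 and Zfp36 and of 1.62%, and TGANTCA in none of the 31 and in 7.82%. A match is a string of letters and not a site shown to be used, and its absence says only that the letters are not in this window. Windows of 4 immediate early genes are printed, Fos because it had the highest level of the list in 19 of the 31 classes and its window held none of these strings, and Btg2, Dusp1 and Zfp36 for their matches, in capitals. They lie at chr12:85473640-85473889 (plus strand), chr1:134079156-134079405, chr17:26508473-26508722 and chr7:28379229-28379478 (minus strand).
Fos: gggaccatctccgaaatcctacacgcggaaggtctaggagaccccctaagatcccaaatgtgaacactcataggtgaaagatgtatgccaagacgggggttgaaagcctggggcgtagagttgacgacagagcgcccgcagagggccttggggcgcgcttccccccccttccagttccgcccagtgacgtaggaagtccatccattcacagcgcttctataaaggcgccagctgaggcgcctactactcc
Btg2: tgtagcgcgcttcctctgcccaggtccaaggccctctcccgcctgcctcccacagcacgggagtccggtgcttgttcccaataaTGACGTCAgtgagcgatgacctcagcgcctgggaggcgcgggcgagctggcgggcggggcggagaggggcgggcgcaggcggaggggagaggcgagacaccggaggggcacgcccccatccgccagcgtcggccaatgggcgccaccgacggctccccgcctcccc
Dusp1: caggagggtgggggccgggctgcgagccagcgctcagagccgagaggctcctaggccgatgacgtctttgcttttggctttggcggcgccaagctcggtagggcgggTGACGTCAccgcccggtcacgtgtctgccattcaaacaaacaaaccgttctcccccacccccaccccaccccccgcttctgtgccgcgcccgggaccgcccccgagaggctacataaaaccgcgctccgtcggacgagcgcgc
Zfp36: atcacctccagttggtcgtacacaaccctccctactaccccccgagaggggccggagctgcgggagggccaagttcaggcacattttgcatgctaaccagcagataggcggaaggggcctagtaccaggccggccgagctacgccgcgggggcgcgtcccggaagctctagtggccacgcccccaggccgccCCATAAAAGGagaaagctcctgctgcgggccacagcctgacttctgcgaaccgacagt
The TGACGTCA of Btg2 began 166 bases and that of Dusp1 143 bases before the start, and the CArG box of Zfp36 58 bases before it.

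Among the AP-1 genes, Fos encodes the inducible partner of the Jun proteins and marks recently stimulated cells. In pericytes Fos stood at 4034, 2061 and 1111 CPM in the sham, infarct and peri-infarct heart libraries and at 1172, 3406 and 343 CPM in the brain ones. In smooth muscle it was 6468, 2949 and 3877 CPM in the heart and 4388 and 6017 CPM in brain sham and peri-infarct. Pericytes and smooth muscle of the brain peri-infarct library thus lay far apart for this gene, the first the lowest of all classes and libraries and the second within 10% of the highest, heart sham smooth muscle. In fibroblasts Fos was 3076, 2022 and 1755 CPM in the heart and 3368, 2048 and 3023 in the brain, and in endothelial cells 4978, 1369 and 1462 and 1389, 1919.8 and 759. The log2 ratio in brain infarct pericytes was 1.54 (95% counting interval of the CPM ratio 2.80 to 3.01) and in brain peri-infarct pericytes -1.77 (0.270 to 0.316).

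Jun, the partner of Fos in the classical AP-1 dimer, followed Fos in pericytes with 2151, 1313 and 723 CPM in the heart and 926, 2185 and 178 CPM in the brain, where peri-infarct was 5.20-fold lower than sham. In endothelial cells it was 2593, 1357 and 1313 CPM in the heart and 1859.7, 1664 and 966 CPM in the brain, and fibroblasts held 1714, 1626 and 1382 and 2504, 1765 and 2066 CPM. Junb, a Jun relative that restrains growth in many cells, stood at 2601, 1202 and 791 CPM in heart pericytes and 555, 2127 and 312 CPM in brain pericytes, and at 3911, 1549.7 and 2604 CPM in heart smooth muscle. Its highest level of all, 4549.5 CPM, was in brain peri-infarct smooth muscle, against 3230.0 CPM in sham. Jund, the Jun gene that most cells transcribe steadily, varied less: 2056, 1117 and 889.8 CPM in heart pericytes and 1801, 1944 and 1029.6 CPM in brain pericytes, with a brain infarct ratio of 0.11 on the log2 scale where Junb had 1.94.

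Among the rarer AP-1 relatives, Atf3 showed the widest ratio in each comparison. In brain peri-infarct this was -2.56 on the log2 scale in pericytes, under a mean of 50 CPM and so not compared. The widest ratio compared there was that of Fosb, at -2.11. Atf3 was 844, 199 and 99.3 CPM in heart pericytes and 1944, 422 and 690.1 CPM in heart smooth muscle, both injury libraries at least 2.81-fold lower than sham. In the brain Atf3 stood at 45.0, 125 and 6.81 CPM in pericytes and 1165 and 2015 CPM in sham and peri-infarct smooth muscle. Of all classes and libraries, brain peri-infarct held both its lowest level, in pericytes, and its highest, in smooth muscle. Fosb, a Fos relative, was one of the members named because they stood highest against their list; it went against the list in heart infarct fibroblasts at 0.66 on the log2 scale, below the 2-fold mark, from 415 to 657 CPM. Maff, a small Maf protein, reached 102 CPM in brain peri-infarct smooth muscle from 46.2 CPM in sham, but was lower than sham there among cells of 1000 to 5000 UMIs (-0.59 on the log2 scale). Fosl2 was compared in all heart classes and called lower in 3 of 5 infarct and 4 of 5 peri-infarct classes; in the brain it passed 50 CPM in smooth muscle alone, with a ratio of -0.02.

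**Figure D4:**
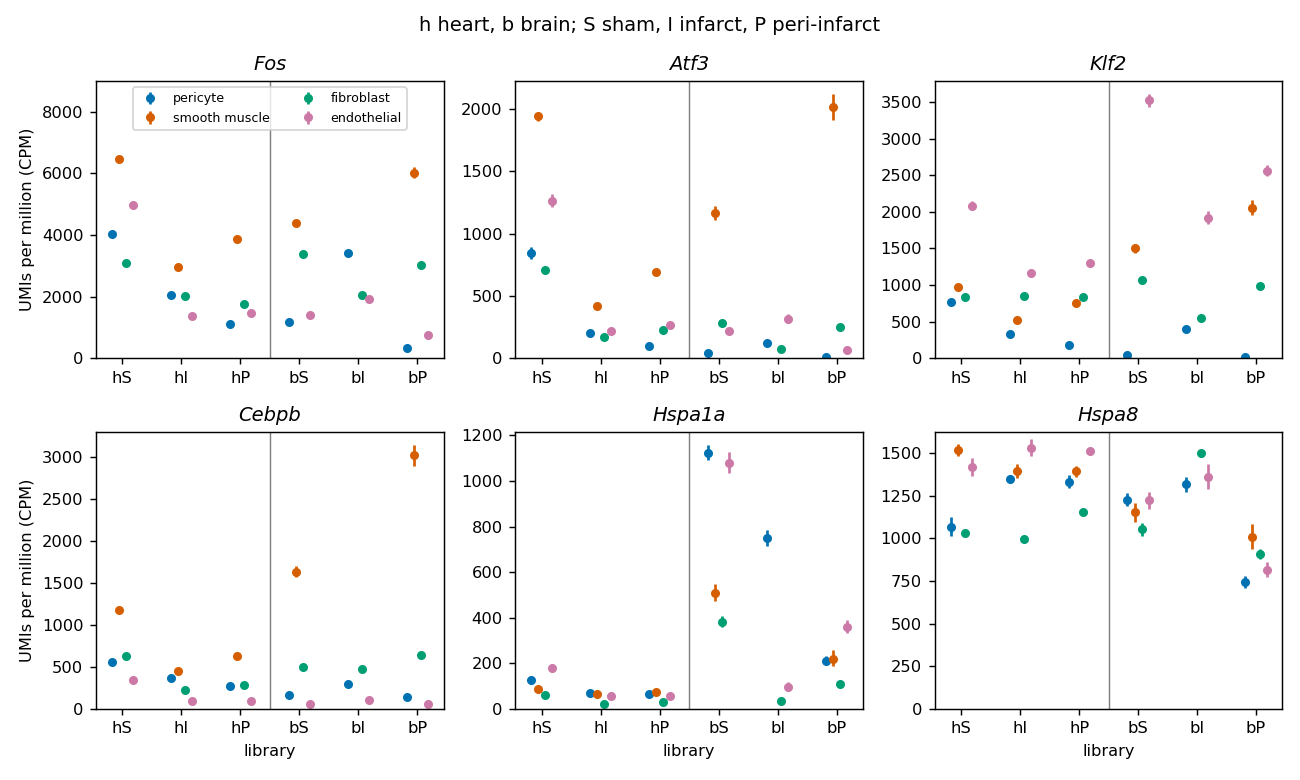
Level in UMIs per 1000000 (CPM, linear axes from 0) of 6 genes in the 4 main classes of each library; points are class sums and bars exact Poisson 95% intervals, and brain infarct smooth muscle is absent. Fos, Atf3 and Cebpb are high in brain peri-infarct smooth muscle and low in pericytes of that library, Klf2 is highest in endothelial cells, Hspa1a is high in brain sham, and Hspa8 stays between 744 and 1532 CPM.

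Egr1, a zinc finger factor that growth factors and stretch induce, was 1522, 654 and 403 CPM in heart pericytes and 317, 627 and 117 CPM in brain pericytes. In heart smooth muscle it was 2305, 788 and 1443 CPM, and brain smooth muscle held 837 and 884 CPM in sham and peri-infarct, a log2 ratio of 0.08. Endothelial Egr1 was 1814, 591 and 644 CPM in the heart and 212, 339 and 70.5 CPM in the brain. Egr2, its relative, reached 50 CPM as a mean of both libraries only in heart smooth muscle and fibroblasts. It was 72.9, 35.0 and 38.0 CPM in heart smooth muscle, called lower in infarct, and 65.9 CPM in sham and 62.7 CPM in infarct fibroblasts of the heart. In brain endothelial cells it was 0.535, 9.35 and 0.608 CPM. No Egr2 UMI was found in brain peri-infarct pericytes, where 3 UMIs would give 1.36 CPM. Egr3 passed the 50 CPM mark in no comparison, with levels from 0.260 to 52.5 CPM.

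Klf2, a factor that blood flow induces in endothelium, was 2086, 1157 and 1298 CPM in heart and 3522, 1921 and 2564 CPM in brain endothelial cells, lower than sham in all 4 comparisons but by less than 2-fold. Brain pericytes held 49.0, 399 and 20.4 CPM, so that the infarct library was 7.99-fold above sham from a low base (interval 6.94 to 9.58). Endothelial markers in those pericytes summed to 369 CPM in sham and 499.7 CPM in infarct; their part was not tested. Heart pericytes held 765, 324 and 173 CPM. Klf4, which holds smooth muscle cells back from the contractile state, was 471, 160.1 and 81.1 CPM in heart pericytes and 40.2, 73.4 and 7.72 CPM in brain pericytes. In brain endothelial cells Klf4 was 758, 289.8 and 246 CPM and in heart endothelial cells 1041, 414 and 505 CPM, called lower in all 4 comparisons. Klf6 was called in no comparison, with log2 ratios from -0.89 in brain peri-infarct pericytes to 0.73 in heart infarct mesothelial cells. Klf10 was compared in heart endothelial and heart peri-infarct mesothelial cells, where it went from 43.1 to 57.2 CPM.

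Nr4a1, an orphan nuclear receptor induced by many stimuli, was 356, 191 and 130.1 CPM in heart pericytes and 112, 173 and 66.3 CPM in brain pericytes. Smooth muscle held more, 687, 259 and 426 CPM in the heart and 728 and 676 CPM in brain sham and peri-infarct. Brain endothelial cells had 126, 132 and 43.8 CPM and brain fibroblasts 149.9, 59.8 and 181. Its relatives Nr4a2 and Nr4a3 went against the list total in several classes. In brain infarct pericytes, where the total was higher, Nr4a3 was 9.91 CPM in sham and 0.803 CPM in infarct, below the 50 CPM mark. In brain peri-infarct smooth muscle Nr4a3 was -1.41 and Nr4a2 -0.68 on the log2 scale where the total was higher. In mesothelial cells Nr4a3 went from 50.1 CPM in heart sham to 91.0 in infarct and 72.5 in peri-infarct. In heart pericytes Nr4a2 was 277, 86.4 and 37.1 CPM, a log2 ratio of -2.87 in peri-infarct.

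Ier3, which protects cells from death signals and feeds back on ERK signalling, was called in both directions, higher in brain infarct pericytes and endothelial cells too. It was 276, 837 and 572 CPM in heart mesothelial cells, higher in both injury libraries, and 1054, 429.7 and 394 CPM in heart endothelial cells, lower in both. The mesothelial call in peri-infarct is close to the 2-fold mark at 1.05, and the count of genes called higher there was 0 under 4 of the 18 alternatives. In the brain Ier3 was 308, 682 and 393 CPM in pericytes and 405, 973 and 766 CPM in endothelial cells. Pericytes of the heart held 408, 234 and 112 CPM. Ier2 and Ier5 were each called higher in brain infarct pericytes, Ier2 from 288 to 774 CPM and Ier5 from 37.0 to 128 CPM.

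Of the genes that damp these signals, Btg2, which holds back division, was 1646, 550.1 and 358 CPM in heart pericytes and 3151, 1042 and 1821 CPM in heart smooth muscle. In the brain it was 541, 689.9 and 266 CPM in pericytes, 706, 221 and 401 CPM in fibroblasts and 2354 and 3384 CPM in sham and peri-infarct smooth muscle. Btg2 was thus called lower in brain infarct fibroblasts and in brain peri-infarct pericytes and endothelial cells, and not in smooth muscle. Dusp1, a phosphatase of MAP kinases whose upstream window also holds TGACGTCA, was 537, 408 and 267 CPM in heart pericytes and 239, 471 and 126 CPM in brain pericytes. It was called lower only in heart peri-infarct pericytes and in brain infarct fibroblasts, from 662 to 209 CPM. Nfkbia, which holds NF-kB in the cytoplasm, was called in no class, with 1072, 582 and 645 CPM in heart and 1251, 925 and 1049.5 CPM in brain endothelial cells. Zfp36, which destabilises cytokine mRNAs, was called lower in 4 of 17 comparisons and reached 1002 CPM in brain peri-infarct smooth muscle against 610.0 CPM in sham. Gadd45b and Gadd45g, stress-induced growth arrest genes named here after their values had been seen, were 5.88-fold and 9.62-fold higher in brain infarct pericytes. Gadd45b was also higher in brain infarct endothelial cells, 242 CPM from 73.2, but this turned to -0.72 on the log2 scale among cells of 1000 to 5000 UMIs and to -0.68 after thinning. In fibroblasts Gadd45g went from 663 CPM in heart sham to 115 and 257, and in brain from 390.5 CPM to 539 in peri-infarct, 0.47 on the log2 scale.

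Cebpb and Cebpd encode C/EBP factors of acute inflammation. Cebpb was 1176, 456 and 634 CPM in heart smooth muscle and 1638 and 3023 CPM in sham and peri-infarct smooth muscle of the brain, 1.85-fold higher and under the 2-fold mark. In brain pericytes and endothelial cells it was far lower, at 169, 291 and 144 CPM and 55.1, 103 and 59.6 CPM. Heart endothelial cells held 339, 96.8 and 94.7 CPM and heart pericytes 556, 366 and 269. Cebpd was 1953, 597 and 1214 CPM in heart and 663, 569 and 1414 CPM in brain fibroblasts. It was called lower in all 5 heart infarct classes and higher in brain peri-infarct fibroblasts (1.09) and smooth muscle (1.12), and brain pericytes held 702, 762 and 581 CPM. Rhob, a small GTPase, was called in none of the 17 comparisons, and Sgk1, a kinase induced by glucocorticoids, was called lower in 6 of the 14 in which it was compared and higher in none.

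The heat shock total went the opposite way to the immediate early total in brain infarct pericytes, brain peri-infarct smooth muscle and heart mesothelial cells. In the other classes compared both totals were below sham. For heat shock the difference was slight in heart peri-infarct fibroblasts, heart peri-infarct pericytes and brain infarct fibroblasts, at -0.02, -0.03 and -0.07 on the log2 scale. The sign of these heat shock totals turned under some alternative settings. Hspa1a and Hspa1b, near-identical neighbours on chromosome 17 that encode the inducible Hsp70, are low in resting cells and rise with protein damage. Their windows lie at chr17:34972157-34972406 and chr17:34959239-34959488 (minus strand), are printed to show how alike the 2 copies are, and have the same base at 247 of 250 positions; GAANNTTC, in capitals, begins 104 bases before both starts.
Hspa1a: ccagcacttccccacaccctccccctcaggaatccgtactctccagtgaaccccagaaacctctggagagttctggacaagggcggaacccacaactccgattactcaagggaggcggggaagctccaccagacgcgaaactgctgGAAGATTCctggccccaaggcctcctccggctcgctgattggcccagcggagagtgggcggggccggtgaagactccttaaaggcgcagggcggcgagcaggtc
Hspa1b: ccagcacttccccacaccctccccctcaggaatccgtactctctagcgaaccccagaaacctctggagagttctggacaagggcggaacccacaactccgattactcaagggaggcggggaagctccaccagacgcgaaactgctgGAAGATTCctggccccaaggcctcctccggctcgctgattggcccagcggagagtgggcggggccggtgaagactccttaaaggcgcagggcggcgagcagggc
GAANNTTC was in the windows of 3 of 5 heat shock genes listed, these and Dnaja1, and of 7.73% of all genes listed. It was also in those of Fosl2, Jun and Sgk1 among 26 immediate early genes, and TTCNNGAA in those of Hsph1, Egr2 and Sgk1 and of 8.11% of genes. Of the 30-base words of the Hspa1a transcript 64.1% recur in Hspa1b, but none of those in its last 500 bases, where the assay counts; how reads were split between the copies is not given in the sources used here, so the split is uncertain.

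Hspa1a was 1125, 749 and 210.2 CPM in brain pericytes and 1080.3, 95.6 and 360.0 CPM in brain endothelial cells, highest in sham in both. Brain fibroblasts held 382, 34.1 and 109.5 CPM and brain smooth muscle 508 and 219.6 CPM in sham and peri-infarct. Every injury value of the brain lay below its sham value, from -0.59 on the log2 scale in infarct pericytes, which is not a call, to -3.49 in infarct endothelial cells. Heart pericytes held far less, 125, 71.1 and 62.8 CPM, and heart endothelial cells 179, 55.8 and 55.8 CPM. Heart fibroblasts held 59.1, 21.4 and 29.1 CPM, under a mean of 50 CPM in both comparisons, and heart smooth muscle 85.2, 65.9 and 73.0 CPM. Heart mesothelial cells held 56.1 CPM in sham and 59.8 CPM in infarct. Hspa1b stood at a lower level, 567, 137 and 96.7 CPM in brain pericytes and 659.6, 30.1 and 183 CPM in brain endothelial cells, and under a mean of 50 CPM in every heart comparison. Its heart log2 ratios ran from -1.45 to -0.09 in infarct and from -1.46 to -0.14 in peri-infarct. Both genes were called lower in all 4 brain peri-infarct classes, and Hspa1b in all 3 of brain infarct. In infarct pericytes the copies differed, Hspa1a at -0.59 and Hspa1b at -2.04 on the log2 scale, and in fibroblasts they were -3.45 and -5.02. The brain sham signal was uneven over cells: at 1000 UMIs per cell the 95th percentile of pericytes held 9 Hspa1a or Hspa1b UMIs and the upper quartile 1, while in peri-infarct the 95th percentile was 1. In brain infarct pericytes it was 7.60. The share of thinned pericytes with at least 1 such UMI was 27.4% in sham (exact binomial 95% interval 24.9% to 29.9%), 40.1% in infarct (35.4% to 44.9%) and 8.17% in peri-infarct (6.50% to 10.1%). In brain fibroblasts it was 20.1%, 3.47% and 8.71%. The heart sham, infarct and peri-infarct shares were 16.6%, 9.22% and 8.74% in pericytes and 7.80%, 2.70% and 3.66% in fibroblasts. They were 19.3%, 9.49% and 6.50% in endothelial cells, 10.8%, 6.37% and 7.82% in smooth muscle, and 7.16%, 7.88% and 7.49% in mesothelial cells.

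Hspa8, the constitutive Hsp70 partner of most cells, was steady in the heart, 1067, 1345 and 1332 CPM in pericytes and 1517, 1395 and 1393 CPM in smooth muscle, and in the brain 1227, 1316 and 744 CPM in pericytes and 1052, 1497 and 905 CPM in fibroblasts. It was called in none of the 17 comparisons. Hsp90aa1, the inducible Hsp90, was 629.7, 466 and 509.9 CPM in heart and 473, 422 and 304 CPM in brain pericytes, and was called in none either, its widest ratio being -0.88 in brain peri-infarct endothelial cells. Dnaja1, an Hsp70 co-chaperone, was 487, 353 and 415 CPM in heart and 668, 419.8 and 314 CPM in brain pericytes, and 775, 447 and 321 CPM in brain endothelial cells. It was called lower in 3 of the 4 brain peri-infarct classes, the exception being fibroblasts at -0.38. Dnajb1, its relative, was called lower in brain peri-infarct pericytes alone, from 117 to 39.0 CPM, and stood higher than sham, below the 2-fold mark, in peri-infarct fibroblasts (0.63) and smooth muscle (0.42). Hsph1, an Hsp110 chaperone, was below a mean of 50 CPM in all 17.

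Other genes of the same pathways, from lists of 40 immediate early and stress-induced genes and 25 heat shock and chaperone genes found in the files, are given by their counts of 2-fold calls. In heart infarct, 5 of 24 of the first list were lower in pericytes and 2 higher, 11 of 24 lower in smooth muscle, 9 of 22 in fibroblasts, 12 of 25 in endothelial cells and 4 of 23 in mesothelial cells. Higher were 2, 1, 0 and 3 in the last 4 classes. Over all genes 5.1%, 6.98%, 5.14%, 5.13% and 12% were lower in these classes, so the mesothelial count of lower genes is near its background. The all-gene shares called higher were 5.26%, 7.02%, 6.59%, 3.51% and 8.43%. In heart peri-infarct 10 of 22, 3 of 23, 6 of 23, 11 of 25 and 8 of 23 were lower in the same order, and 0, 1, 2, 0 and 1 higher. Beside these, 6.17%, 2.83%, 2.66%, 4.93% and 10.4% of all genes were lower and 5.12%, 3.07%, 3.06%, 3.78% and 7.91% higher. Of the second list none was called lower in heart infarct, and 3 of 21 in smooth muscle and 2 of 18 in mesothelial cells were higher. In heart peri-infarct 1 of 19 was lower in pericytes, and 2 were lower and 2 higher of 19 in mesothelial cells. Against the all-gene shares above, the mesothelial chaperone counts of both comparisons are near their background. Ppp1r15a, which restarts translation after stress, was 1122 CPM in sham and 217 CPM in infarct in heart endothelial cells, and 835 CPM in sham and 92.7 CPM in peri-infarct in heart pericytes. Socs3, an inhibitor of cytokine signalling, was 715 CPM in sham and 142 CPM in infarct in heart fibroblasts, and Plk2, a kinase, 86.2 CPM in sham and 16.7 CPM in infarct in heart pericytes. Pim1, a kinase, and Cxcl1, a neutrophil chemokine, were lower in heart peri-infarct endothelial cells, at -2.07 and -2.01 on the log2 scale.

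In brain infarct pericytes 8 of 21 other immediate early genes were called higher and 3 lower, beside 8.98% and 13.2% over all genes. Ccl2, which attracts monocytes, was 4.02 CPM in sham and 104 CPM in infarct, Cxcl1 11.8 CPM in sham and 112 CPM, and the metallothionein Mt2 17.7 CPM in sham and 140.1 CPM. The Ccl2 ratio was the widest of this list in the 4 comparisons. In brain infarct fibroblasts 6 of 17 were lower and 2 higher, and in endothelial cells 4 of 20 lower and 1 higher. Of the heat shock and chaperone list none of 19 was called in brain infarct pericytes, 3 were lower and 2 higher of 19 in fibroblasts, and 4 of 16 were lower in endothelial cells. Over all genes 20.6% were lower and 11.8% higher in fibroblasts, near the chaperone counts, and 13.6% lower and 6.93% higher in endothelial cells. In brain peri-infarct none of 14 was called in pericytes, 2 were lower and 2 higher of 24 in smooth muscle, 1 lower and 1 higher of 17 in fibroblasts and 3 lower of 19 in endothelial cells. Lower over all genes were 0.608%, 1.28%, 4.46% and 0.903%, and higher 0.203%, 0.489%, 1.36% and 0.356%. The connective tissue growth factor gene Ctgf was 1166 CPM in sham and 333 CPM in peri-infarct in fibroblasts, Ccl2 93.8 CPM in sham and 277 CPM in the same cells, and the clock gene Per1 155 CPM in sham and 63.8 CPM in endothelial cells. Of the 25 other heat shock and chaperone genes, 1 of 21 was called lower in brain peri-infarct pericytes and none in the other 3 classes, although their list medians were below 0 in all 4, at -0.37, -0.35, -0.25 and -0.54.

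Macrophages or microglia were described in 4 libraries and cardiomyocytes in 1, without a sham class to compare. The immediate early total of macrophages was 17506 CPM in heart infarct, 20218 in heart peri-infarct, 13569.6 in infarcted brain and 23018 in the brain around it. They were the highest class of the heart infarct library, and lay below smooth muscle and above the others in both peri-infarct libraries. Nfkbia, Ier3 and Dusp1 were higher in heart macrophages than in any other heart injury class, at 1545, 959 and 1192 CPM in infarct. Cardiomyocytes of heart peri-infarct had the lowest total of any heart class, 6530.4 CPM, with a median of 1 UMI per 1000 in a cell. Of 10 fibroblast markers 9 had UMIs in them, Slc6a13 being at 0, and these summed to 5622 CPM; their part in the total was not tested. Their heat shock total was 2029 CPM, against 2233 CPM in fibroblasts of the same library.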

How the data were processed

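RNA of single sorted cells was captured with 10x 3′ v3 chemistry. The submitters' processing notes name Cell Ranger 3.0.2, the build mm10 and Seurat 3. The deposited matrices, 1 per group, give whole UMI counts of each gene in each cell. Members, pathway lists and markers were chosen with earlier results of these data known.

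Cells with at least 500 genes and at most 10% mitochondrial UMIs were kept. A cell joined a class when its marker sum had at least 3 UMIs from 2 markers, was at least 2-fold and 3 standard deviations of counting noise above the level in other cells, and led any other class by 1.5 times. Smooth muscle also needed Myh11 above its background, since its markers are shared with pericytes. These limits were set after the data had been seen. No doublet caller was run; cells that met 2 gates without such a lead were left out, and an alternative left out the cells with the most UMIs. UMIs were summed per class and library and scaled to CPM, and classes with at least 50 cells were used (mesothelial cells in the heart alone). A gene was compared where its mean was at least 50 CPM and called at a 2-fold ratio of CPM + 1. With 1 library per group there is no replicate spread and no test. Level intervals are exact Poisson and ratio intervals exact binomial, at 95%, and cover counting error only. Named with full values were the members with the highest mean level in each role group (4 of AP-1, 2 each of Egr, Klf and other stress genes, 1 each of Nr4a and Ier, 3 of feedback, 4 of heat shock) and up to 3 further members per comparison with the largest ratio against their list; other members were named after their values had been seen. Of other pathway genes, the 3 widest ratios per comparison were named. Of 18 alternative settings, 2 (shared barcodes left out, no Myh11 condition) were chosen after the data had been seen. The gate and the calls were run on simulated data with counting noise alone. The cells for the gate were drawn from heart infarct pericyte, fibroblast and endothelial sums that the same gate had picked. These runs cannot show how well the gate does on the real cells. Python 3.11.15, numpy 2.4.6, scipy 1.17.1, pandas 2.3.3, R 4.3.3 and edgeR 4.0.16 (for TMM scaling factors alone, no test) were used.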

Additional observations from a re-analysis of the deposited data

Results flagged for a closer look

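The immediate early total of pericytes stood at -0.91 on the log2 scale in heart infarct against sham and at 0.97 in brain infarct against sham, opposite directions in the organs. Likewise the smooth muscle total stood at -0.67 in heart peri-infarct and at 0.45 in brain peri-infarct. Each rests on 1 library per group, so neither difference between the organs was tested, and organ and dissociation method cannot be told apart.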

How the results depend on the processing

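Over the alternatives that gave a value, 18 for 28 of the list totals and 17 for the other 6 (heart mesothelial cells and brain infarct fibroblasts, with too few cells of 1000 to 5000 UMIs), the sign of 29 of 34 list totals was kept. It turned for the heat shock totals of heart peri-infarct pericytes and fibroblasts (to 0.03 at most in each), for brain infarct endothelial immediate early (0.06) and fibroblast heat shock (0.50), and for brain peri-infarct fibroblast immediate early (0.07). Of 3087 recomputed calls of single members 2201 stayed, 883 moved and 3 turned: Gadd45b in brain infarct endothelial cells to -0.72 (cells of 1000 to 5000 UMIs) and -0.68 (thinned cells), and Maff in brain peri-infarct smooth muscle to -0.59 (cells of 1000 to 5000 UMIs). No paired analysis was possible because each group is 1 library.

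Counts of gene and class pairs called were, lower and higher, 58 and 1 immediate early for heart infarct, 54 and 1 for heart peri-infarct, 10 and 13 for brain infarct, and 13 and 4 for brain peri-infarct. For heat shock 1, 1, 5 and 12 were lower in the same order and none higher. By class, the shares of all genes called lower were 5.1% to 12%, 2.66% to 10.4%, 13.2% to 20.6% and 0.608% to 4.46% in that order. Called higher were 3.51% to 8.43%, 3.06% to 7.91%, 6.93% to 11.8% and 0.203% to 1.36%. The numbers of immediate early genes compared per class are given above. Of 288 recomputed counts 49 moved by more than 1.5 times, and the cause was not tested.
In heart infarct, immediate early lower became 36 in cells of 1000 to 5000 UMIs, where 4 classes remained, and 101 at a 1.5-fold threshold. Immediate early higher became 2 with at least 1000 genes, with profile-assigned classes or without the cells of most UMIs, 0 in cells of 1000 to 5000 UMIs, 3 when thinned or under TMM, 4 with free RNA subtracted and 7 at 1.5-fold. Heat shock lower became 2 with a stricter gate, when thinned, without the Myh11 condition or with CPM computed without mitochondrial genes, Malat1 and the members, 0 as a mean over cells, 4 at a mean of 20 CPM (with 1 higher) and 6 at 1.5-fold.
In heart peri-infarct, immediate early lower became 96 at 1.5-fold, and higher became 0 at up to 20% mitochondrial UMIs, without the cells of most UMIs, as a mean over cells and without mitochondrial genes, Malat1 and the members. Heat shock lower became 2 with at least 200 or 1000 genes, up to 20% mitochondrial UMIs, cells of 1000 to 5000 UMIs, thinned cells, the mean over cells, TMM and free RNA subtracted, 3 without mitochondrial genes, Malat1 and the members and at 20 CPM (with 1 higher), and 4 at 1.5-fold.
In brain infarct, immediate early lower became 2 in cells of 1000 to 5000 UMIs, where 2 classes remained, 6 under TMM and 20 at 1.5-fold, and higher 22 at 1.5-fold. Heat shock lower became 3 in cells of 1000 to 5000 UMIs, 8 at 20 CPM and 9 at 1.5-fold, and higher 1 under TMM.
In brain peri-infarct, immediate early lower became 34 and higher 10 at 1.5-fold, and higher 2 when thinned and as a mean over cells. Heat shock higher became 1 in cells of 1000 to 5000 UMIs and at 1.5-fold.

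Depth limits rare members most: among named members at 50 CPM or more the counting interval was at most ±41.5% of the level, with a median of ±4.51%.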
